A study of Drosophila melanogaster and Drosophila arizonae and Drosophila mojavensis with 18 samples.

Results

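Larvae of *D*. *mojavensis*, a cactus-breeding fly of the North American deserts, were compared after 24 h on the EPS diet, in which protein and sugar were supplied in equal amounts, and on the HPLS diet, which was high in protein and low in sugar. This is the first of the 2 steps by which sucrose replaced yeast, the protein source, in this isocaloric series of diets. The comparison rested on 4 of the 18 libraries of the study, which covered 3 species and 3 diets. The libraries were chosen by their labels, as 2 EPS libraries (replicates S1 and S2) and 2 HPLS libraries (S1 and S2), and were paired by the S number. The 2 libraries of the third diet, LPHS, low in protein and high in sugar, entered the fit to help estimate the spread and are shown for the genes that turned out to differ. Each library was made from polyA RNA of whole larvae of the third instar, pooled, from stocks kept on banana-opuntia food. The study used a pair of isofemale strains (lines each founded by a single female) from Baja California Sur, and neither the labels nor the methods say whether the S number is the strain. Strain, vial and library preparation therefore cannot be told apart within a pair, and the p-values measure only the spread between these libraries. Totals in the EPS and HPLS libraries ran from 6819502 to 9910492 fragments.

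Insect larvae meet a shift from protein to sugar with changes in a few well known processes. The oxidative branch of the pentose phosphate pathway makes NADPH from glucose for fatty acid synthesis, amino acid breakdown falls when dietary protein is scarce, and the kinase TOR and the insulin pathway adjust translation through the inhibitor 4E-BP. The fat body of the late larva stores amino acids in hexamerins, and the gut and fat body carry detoxifying P450 and UGT enzymes. Gene names below are those the study gives for the FlyBase identifiers in the deposited table, with the *D*. *melanogaster* ortholog in parentheses, and roles of orthologs are known mainly from *D*. *melanogaster*. Positions and sequences are not given, as no annotation of the *D*. *mojavensis* genome was used here.

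With the replicate number as a block, 18 of 9724 genes tested differed between EPS and HPLS larvae at an adjusted p of at most 0.05, and this was 0.185% of the genes tested. In EPS larvae 13 genes were higher and 5 were lower. The rise included the enzyme GI11069 (*Pgd*) of the pentose phosphate pathway, the translation inhibitor GI14996 (*Thor*), 2 immune-induced peptides, 2 transporters and the unannotated gene GI18936. The fall included 2 P450 genes, a UGT, sarcosine dehydrogenase and a CHK kinase-like gene. Changes are given as log2 fold changes of EPS over HPLS on the scale of log2(value + 1), where low genes appear to change less than they did, and adjusted p-values are from limma with the Benjamini-Hochberg adjustment over all genes tested. In whole larvae, fewer cells of a type and less RNA per cell cannot be told apart.

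The calls depended on the pairing and on the libraries used. In the limma fit with no replicate block 0 genes were called, 217 genes (2.23%) had an unadjusted p under 0.05, and the adjusted p of the 18 genes lay between 0.086 and 1.00. With the block, 774 genes had an unadjusted p under 0.05 (7.96% of those tested). The count was 165 without HPLS replicate 1, 69 without HPLS replicate 2, 25 without EPS replicate 1 and 23 without EPS replicate 2, with 18, 17, 11 and 11 of the 18 genes among them. In the fit of the 4 EPS and HPLS libraries alone it was 207, and it included all 18. The direction of none of the 18 genes changed under the 18 alternative settings, which refit the same libraries. In both replicate pairs each of them moved the same way. Of all genes tested, 25.3% were higher in both pairs and 27.3% were lower in both. The call itself favours a kept direction and pairs that agree, so neither is independent evidence. The EPS and HPLS libraries did not overlap in 17 of the 18, which the call itself favours, and in 25.3% of all genes tested.

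**Figure D1:**
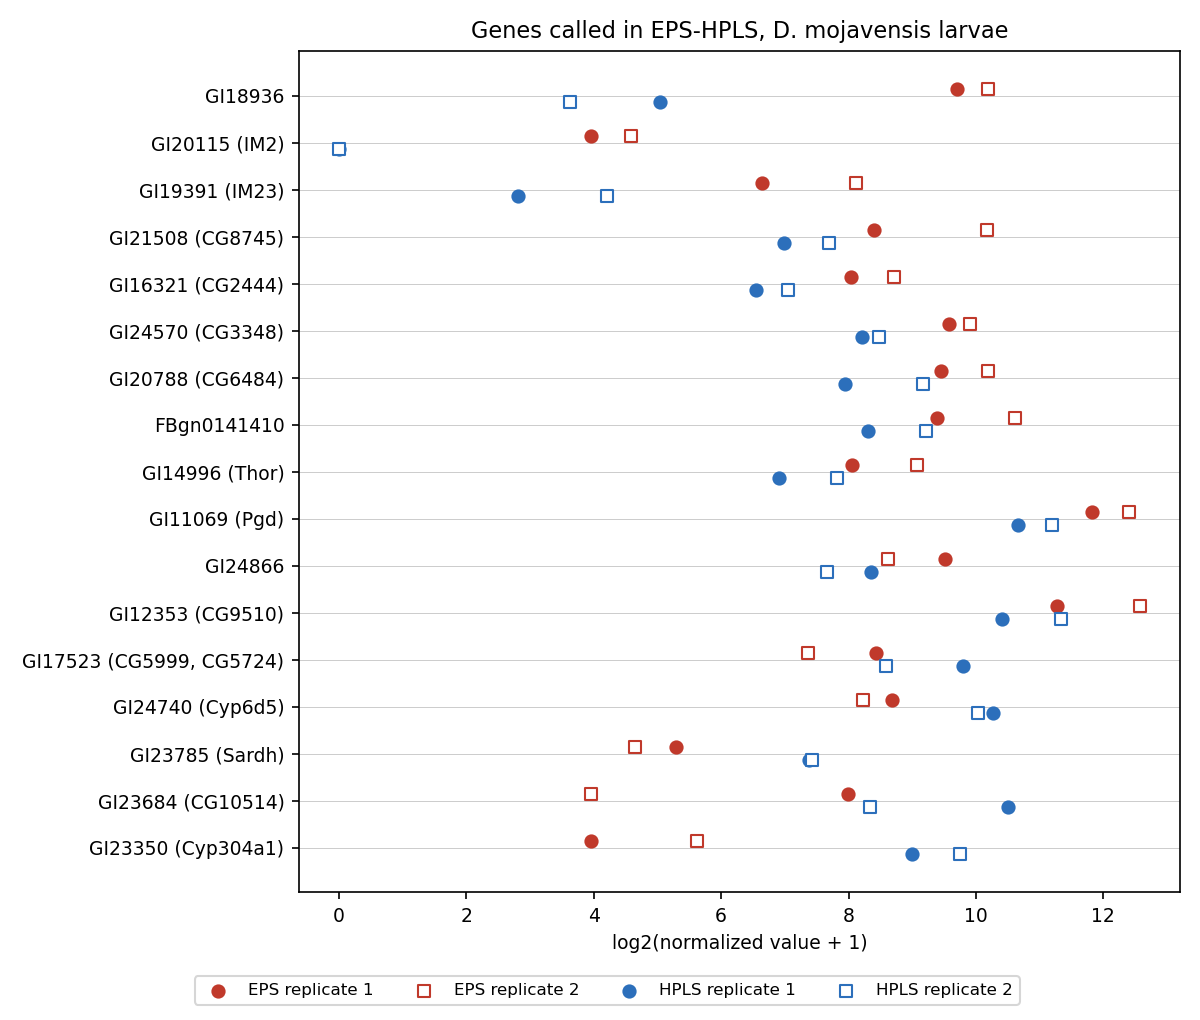
Level of 17 of the 18 genes called in EPS-HPLS in each library, as log2(normalized value + 1) on the horizontal axis, with EPS libraries in red above HPLS libraries in blue, circles for replicate 1 and squares for replicate 2. In 16 of these 17 genes the EPS and HPLS libraries do not overlap, the exception being GI12353, and GI20115 is at 0 in both HPLS libraries.

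Of the 18 genes, 17 belong to the 141 genes that the study itself called between diets in this species. Those genes were chosen on the same libraries, so their direction here is not independent evidence. Among the 141 genes, 52 had been listed as up-regulated and 89 as down-regulated at higher sugar, and 135 passed the filter on low values. The median EPS-HPLS change was 1.05 in the 52 genes listed as up and -0.89 in the 83 tested genes listed as down, against -0.01 over all genes tested. All 52 of the first group had a positive value at the first step, from 0.16 to 5.62. In the second group 81 had a negative value, and GI20943 and GI20628, chosen after their values were seen, had values of 0.68 and 0.07. Past the threshold were 12 genes of the first group, all higher, and 5 of the second, all lower, against 0.134% and 0.0514% of all genes tested in these directions. Just inside the threshold lay GI24866 (adjusted p = 0.047) and just outside it GI17344 (adjusted p = 0.0617).

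**Figure D2:**
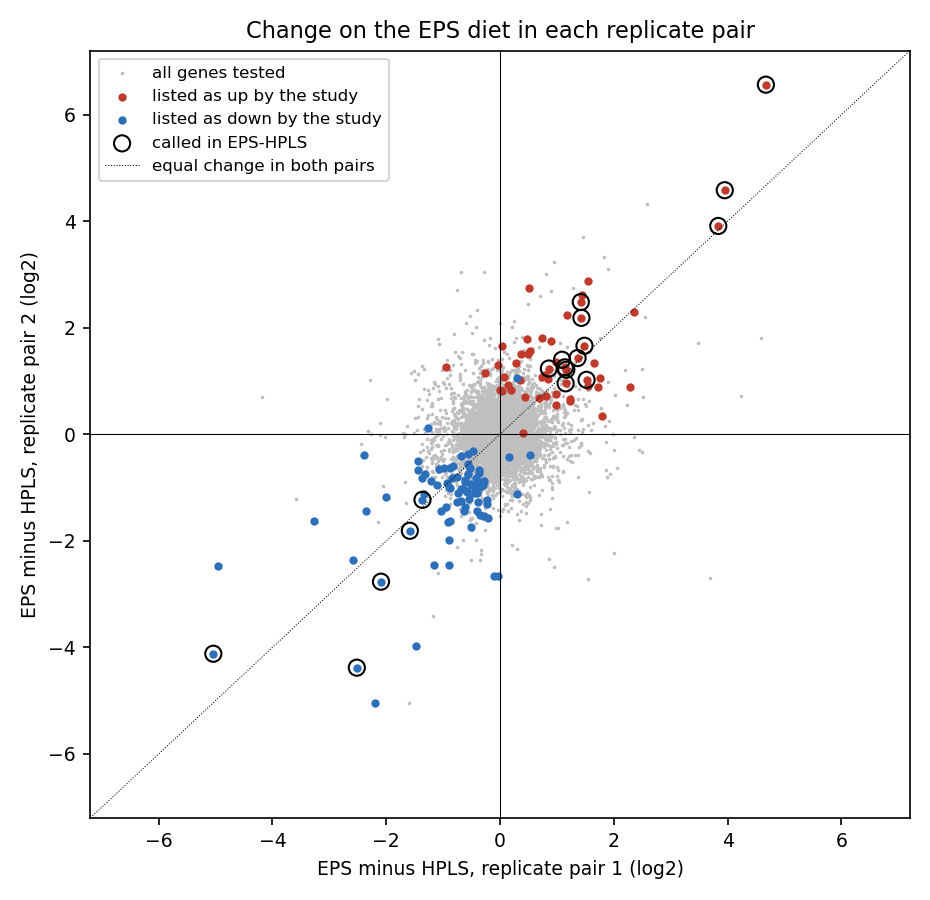
EPS minus HPLS difference in log2(normalized value + 1) in replicate pair 1 (horizontal) and replicate pair 2 (vertical), with all 9724 genes tested in grey, genes listed as up or down by the study in red or blue, genes called here circled in black, and a dotted line of equal change. All 18 circled genes are higher in both pairs or lower in both pairs, and GI18936, with 4.67 and 6.56, lies farthest to the upper right.

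In the genes listed as up and in those listed as down, the median first step was larger in pair 2 than in pair 1. Among the 52 genes listed as up the median difference was 0.94 in pair 1 and 1.22 in pair 2, and 36 of them moved further in pair 2. Among the 83 genes listed as down the medians were -0.68 and -1.06, and 56 moved further in pair 2. Over all genes tested 55.2% did so.

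An enzyme of the oxidative pentose phosphate branch rose. GI11069 (*Pgd*, FBgn0133832), 6-phosphogluconate dehydrogenase, which makes NADPH, had normalized values of 3626 and 5438 in EPS larvae, against 1618 and 2348 in HPLS larvae. Both EPS values exceeded both HPLS values. The pairs gave nearly the same change, 1.16 in pair 1 and 1.21 in pair 2, and the rise was 2.28-fold (log2 fold change 1.19, SE 0.12, adjusted p = 0.0271). In sugar and trehalose metabolism 3 further genes, a hexokinase, a maltase and a trehalose 6-phosphate phosphatase, had log2 fold changes from -1.26 to 0.57 and did not pass the test.

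Among 9 transporter genes, 2 were called higher and 0 lower, against 0.134% and 0.0514% of all genes tested. In both pairs 3 of the 9 were higher and 5 were lower (25.3% and 27.3% of all genes tested), and the median was -0.57. All 9 come from the genes listed by the study on these libraries. GI20788 (*CG6484*, FBgn0143523), annotated as a sugar or inositol transporter, had 702 and 1170.4 in EPS larvae, against 244 and 576 in HPLS larvae (log2 fold change 1.27, SE 0.16, adjusted p = 0.0468). GI24866 (FBgn0147586), a sodium-independent sulfate anion transporter by annotation, had 727 and 391 in EPS larvae, against 327 and 201 in HPLS larvae (log2 fold change 1.05, SE 0.13, adjusted p = 0.047). In both genes all EPS values were above all HPLS values. The other 7 transporter genes ranged -2.48 to 1.50, with a smallest adjusted p of 0.0644.

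Of 7 nutrient signalling and growth genes 1 passed the test, as higher, against 0.134% of all genes tested and 12 of the 52 genes listed as up. All 7 come from the genes that the study listed as up on these libraries, of which 92.3% were higher in both pairs (25.3% of all genes tested), so the 7 of 7 that were higher in both pairs show nothing about these genes in particular. GI14996 (*Thor*, FBgn0137747) encodes 4E-BP, which binds the cap-binding factor eIF4E and holds back translation when TOR is inactive. It had 264 and 536 in EPS larvae, against 119.5 and 224 in HPLS larvae, a 2.29-fold rise (log2 fold change 1.20, SE 0.14, adjusted p = 0.0395). Its paralog GI15007 (*Thor*) was less abundant, with 34 and 54.4 in EPS larvae, against 23.9 and 18.6 in HPLS larvae (log2 fold change 1.00, adjusted p = 0.35). GI19975 (*sug*) is the ortholog of sugarbabe, a zinc finger factor that sugar induces in *D*. *melanogaster*. Its values were 419 and 327 in EPS larvae, against 177 and 213 in HPLS larvae, and the groups did not overlap (log2 fold change 0.93, adjusted p = 0.171). Reads from the *Thor* copies may be shared between them, so the split between GI14996 and GI15007 is uncertain.

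Of 7 genes of amino acid breakdown and purines 1 was called higher and 1 lower, against 0.134% and 0.0514% of all genes tested. In both pairs 1 of the 7 was higher and 6 were lower (25.3% and 27.3% of all genes tested). All 7 come from the genes listed by the study on these libraries. GI23785 (*Sardh*, FBgn0146510), sarcosine dehydrogenase, which oxidises sarcosine to glycine in mitochondria, had 38.2 and 24.2 in EPS larvae, against 166 and 170.2 in HPLS larvae. Its EPS values were far below its HPLS values in both pairs, a 5.39-fold fall (log2 fold change -2.43, SE 0.27, adjusted p = 0.0372). GI12353 (*CG9510*, FBgn0135110), argininosuccinate lyase, which releases arginine and fumarate, had 2468 and 6087 in EPS larvae, against 1362 and 2586 in HPLS larvae. Replicate 1 of EPS lay below replicate 2 of HPLS, so the groups overlapped, but within each pair the EPS library was higher (log2 fold change 1.05, SE 0.13, adjusted p = 0.047). The remaining 5 members ranged -0.98 to -0.62 and did not pass the test. GI23443 (*CG6415*), aminomethyltransferase of the glycine cleavage system, had 1235 and 884 in EPS larvae, against 1836 and 1481 in HPLS larvae (adjusted p = 0.163). *Xdh* (*ry*), xanthine dehydrogenase, which makes uric acid, had 209.8 and 93 in EPS larvae, against 278 and 254 in HPLS larvae (adjusted p = 0.329).

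In lipid metabolism 1 of 14 genes was called higher and 0 lower, against 0.134% and 0.0514% of all genes tested. In both pairs 4 of the 14 were higher and 9 were lower (25.3% and 27.3% of all genes tested). All 14 come from the genes listed by the study on these libraries. GI21508 (*CG8745*, FBgn0144238), ethanolamine-phosphate phospho-lyase, which breaks down the phosphoethanolamine of membrane lipids, had 337 and 1152 in EPS larvae, against 126 and 205 in HPLS larvae. The rise was 3.87-fold (log2 fold change 1.95, SE 0.23, adjusted p = 0.0395), with a difference of 1.42 in pair 1 and 2.48 in pair 2. The other 13 ranged -2.45 to 1.32, and the median over the 14 was -0.80.

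The cytochrome P450 genes, whose products oxidise hormones and foreign compounds, gave the largest fall. Of the 6 genes 2 passed the test, both lower. Called as lower were 0.0514% of all genes tested and 5 of the 83 tested genes listed as down. All 6 were lower in both pairs, but they come from the genes listed as down by the study, of which 94.0% of those tested were lower in both pairs (27.3% of all genes tested). GI23350 (*Cyp304a1*, FBgn0146077) had 14.4 and 48.3 in EPS larvae, against 507 and 856 in HPLS larvae. This was a 23.9-fold fall (log2 fold change -4.58, SE 0.38, adjusted p = 0.015), the most negative change of any gene tested. GI24740 (*Cyp6d5*, FBgn0147462) had 409 and 298 in EPS larvae, against 1231 and 1049 in HPLS larvae, a 3.25-fold fall (log2 fold change -1.70, SE 0.18, adjusted p = 0.0306). The other 4 ranged -1.60 to -0.81.

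The 4 UDP-glucuronosyltransferases, which attach sugar groups to small molecules for excretion, did not share a direction. GI17523 (*CG5999* or *CG5724*, FBgn0140267) fell 2.46-fold, with 346 and 163 in EPS larvae, against 892 and 384 in HPLS larvae (log2 fold change -1.30, SE 0.14, adjusted p = 0.0372). GI20954 (*CG17323*) stood at 27.2 and 31.4 in EPS larvae, against 15.9 and 8.25 in HPLS larvae, and did not pass the test (log2 fold change 1.27, SE 0.33, adjusted p = 0.309). Its EPS values lay above its HPLS values, and so did those of GI20943 (*CG17324*), at 82.4 and 136 in EPS larvae, against 66.7 and 65 in HPLS larvae (adjusted p = 0.421).

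Of 7 CHK kinase-like genes 1 passed the test, as lower, against 0.0514% of all genes tested and 5 of the 83 tested genes listed as down. All 7 were lower in both pairs, and they too come from the genes listed as down, with the shares of 94.0% and 27.3% given above. This insect family of small-molecule kinases includes enzymes that phosphorylate ecdysteroids in the silkworm. GI23684 (*CG10514*, FBgn0146410) had 253 and 14.5 in EPS larvae, against 1454 and 322 in HPLS larvae (log2 fold change -3.45, SE 0.41, adjusted p = 0.0395). GI23906 (*CG11892*), with 276 and 10.9 in EPS larvae, against 1264 and 393 in HPLS larvae, and GI23685 (*CG11889*, *CG11878* or *CG11891*), with 138 and 9.66 in EPS larvae, against 388 and 166 in HPLS larvae, showed the same arrangement of libraries. In all 3 genes EPS replicate 2 was far below the other EPS and HPLS libraries. Replicate 2 was also below replicate 1 on the HPLS and LPHS diets. In LPHS larvae replicates 1 and 2 had 153 and 9.62 for GI23684, 179 and 5.34 for GI23906 and 112 and 6.41 for GI23685. The EPS-HPLS differences were -2.52 in pair 1 and -4.38 in pair 2 for GI23684, -2.19 in pair 1 and -5.05 in pair 2 for GI23906 and -1.48 in pair 1 and -3.97 in pair 2 for GI23685. GI23906 (log2 fold change -3.62, adjusted p = 0.159) and GI23685 (-2.72, adjusted p = 0.212) did not pass. In *D*. *melanogaster* the orthologs *CG11889*, *CG10514* and *CG11892* are close neighbours, with 3 protein-coding genes between the outer ones, *CG10514* among them (RefSeq, Release 6). Whether reads shared between such related copies affected these values was not tested.

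Of 7 immune peptide and lectin genes 2 were called higher and 0 lower, against 0.134% and 0.0514% of all genes tested. All but GI24801 come from the genes that the study listed as up on these libraries, so a rise of the list is not independent evidence. GI19391 (*IM23*, FBgn0142129), whose ortholog encodes an immune-induced peptide of the haemolymph, had 98.5 and 278 in EPS larvae, against 5.98 and 17.5 in HPLS larvae. It had the smallest p of all genes, and the pairs were close, at 3.83 in pair 1 and 3.91 in pair 2 (log2 fold change 3.87, SE 0.18, adjusted p = 0.000789), a 14.7-fold rise. GI20115 (*IM2*, FBgn0142851), another immune-induced peptide, had 14.4 and 22.9 in EPS larvae, against 0 and 0 in HPLS larvae (log2 fold change 4.27, SE 0.51, adjusted p = 0.0395). With no fragment in either HPLS library, the ratio is a lower bound, and at the limit of 3 fragments per library that a count of 0 allows, GI20115 was at least 6.15-fold higher in EPS larvae. The other 5 ranged -0.42 to 1.71, and the median of the 7 was 1.63.

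Of 12 cuticle and chitin genes 10 were lower in both pairs, but the 1 that passed the test rose. Of all genes tested, 0.134% were called higher. GI24570 (*CG3348*, FBgn0147292), with a chitin binding domain, had 762 and 964 in EPS larvae, against 296 and 357 in HPLS larvae (log2 fold change 1.40, SE 0.13, adjusted p = 0.0159). Its differences were 1.36 in pair 1 and 1.43 in pair 2. The 8 genes annotated as insect cuticle proteins were lower in both pairs, from -1.38 to -0.71, and 0 of them passed the limma test, while all 8 had an unadjusted p under 0.05. They were again taken from the genes listed as down, of which 94.0% of those tested were lower in both pairs and 84.3% had an unadjusted p under 0.05, against 27.3% and 7.96% of all genes tested. The larval cuticle genes GI20903, GI20904 and GI20905 (*Lcp1* or *Lcp2*) had changes of -1.23, -0.99 and -0.84, with adjusted p-values of 0.109, 0.159 and 0.397. They have the same orthologs, and reads may be shared between them. This was not tested, so their single values may be uncertain.

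**Figure D3:**
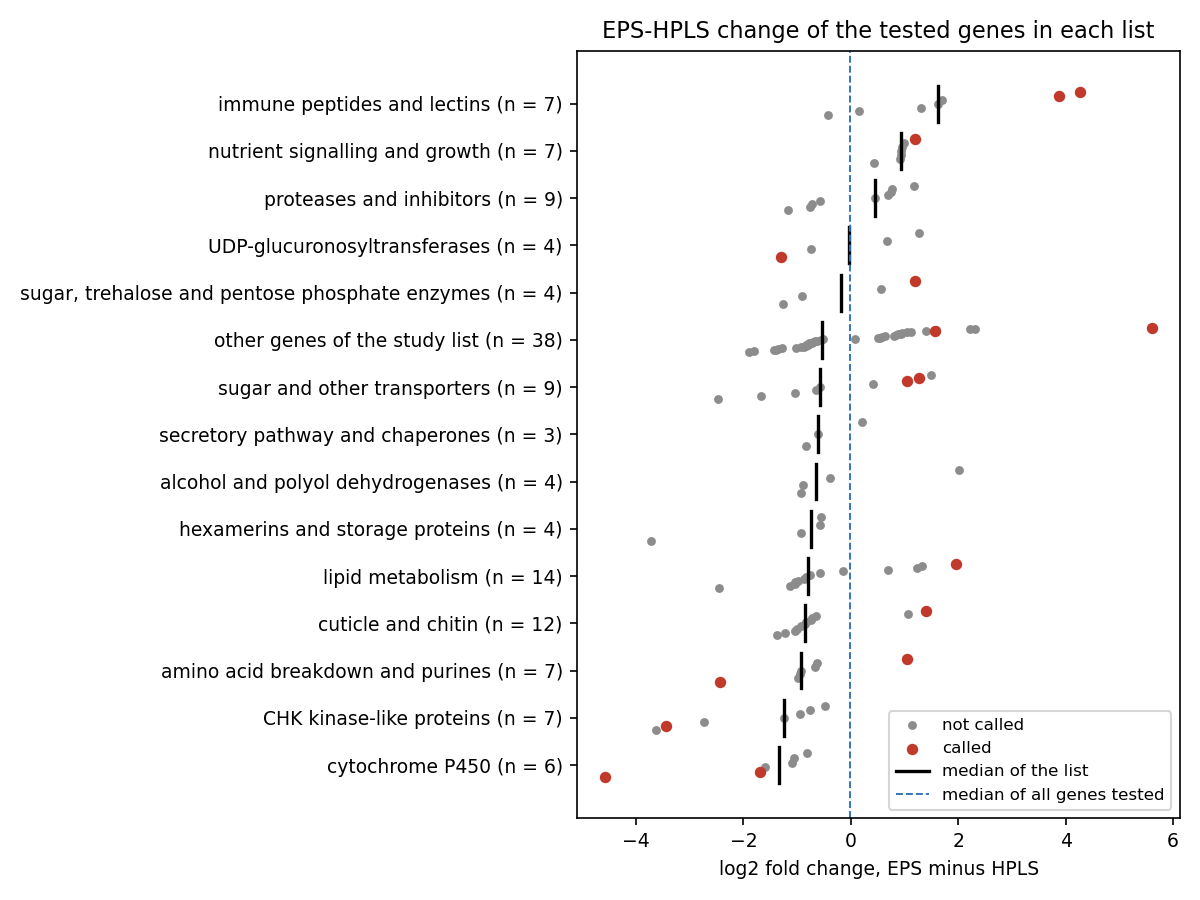
Log2 fold change of EPS over HPLS (horizontal axis) for 135 tested genes of the lists used here, by list (vertical axis, with the number plotted). Called genes are red and others grey, with the list median as a black bar and the median of all genes tested as a dashed line. The genes plotted include *Adh1*, which the study did not list, and leave out 1 called gene. The median is highest for immune peptides and lectins, at 1.63, and lowest for cytochrome P450, at -1.34.

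The largest rise belonged to a gene of unknown function. GI18936 (FBgn0141675), without an ortholog or a domain in the annotation of the study, had 837 and 1167 in EPS larvae, against 31.9 and 11.3 in HPLS larvae. Both EPS libraries were far above both HPLS libraries, a 49.1-fold rise (log2 fold change 5.62, SE 0.39, adjusted p = 0.00587). GI16321 (*CG2444*, FBgn0139069), with a single von Willebrand factor type C domain, had 261 and 417 in EPS larvae, against 92.6 and 131 in HPLS larvae (log2 fold change 1.57, SE 0.14, adjusted p = 0.0159). FBgn0141410, the only called gene outside the list of the study, has no name here and had 673 and 1571 in EPS larvae, against 316 and 595 in HPLS larvae (log2 fold change 1.24, SE 0.16, adjusted p = 0.047). GI17344, also without annotation, had 1240.3 and 1536 in EPS larvae, against 243 and 313 in HPLS larvae and narrowly missed the threshold (log2 fold change 2.32, SE 0.31, adjusted p = 0.0617). GI10121 (*CG4757*), annotated as an acetylcholinesterase, had 13.6 and 74.9 in EPS larvae, against 3.98 and 9.28 in HPLS larvae (adjusted p = 0.285), with only a few fragments behind its HPLS values.

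The storage proteins and other larval transcripts did not pass the test. GI23074 (*Lsp1β*), a hexamerin that the fat body secretes as an amino acid store, had 323010.2 and 265551 in EPS larvae, against 419476 and 441694 in HPLS larvae (log2 fold change -0.56, SE 0.14, adjusted p = 0.285). It made up 3.84% and 3.22% of all fragments in the EPS libraries, and 4.73% and 5.13% in the HPLS libraries. GI11539 (*Fbp1*), a fat body protein that binds hexamerins, had 16.1 and 267 in EPS larvae, against 533 and 1487 in HPLS larvae. Its libraries varied so much that a log2 fold change of -3.72 had an SE of 1.05 (adjusted p = 0.337). GI13762 (*CG8100*), another protein with hexamerin domains, had 172 and 221 in EPS larvae, against 415 and 203 in HPLS larvae, with overlapping groups and pairs that went opposite ways, at -1.26 in pair 1 and 0.12 in pair 2 (adjusted p = 0.717). GI19287 (*PPO1*), the prophenoloxidase of crystal cells in *D*. *melanogaster*, had 947 and 600.3 in EPS larvae, against 1581 and 1297 in HPLS larvae (log2 fold change -0.92, SE 0.17, adjusted p = 0.163). GI23074, GI11539, GI19287 and the 3 *Lcp* genes served as markers of the late larva, its fat body, crystal cells and cuticle, and all 6 were found in all 4 libraries. These 6, which leave out GI13762 and come from the genes listed as down, were lower in EPS larvae in both pairs. Their log2 fold changes ran from -3.72 to -0.56, and 0 of the 6 passed the limma test, with unadjusted p under 0.05 in all 6. Of the tested genes listed as down, 94.0% were lower in both pairs and 84.3% had an unadjusted p under 0.05. Over all genes tested these shares were 27.3% and 7.96%, so the counts show nothing about the markers in particular. Their part in the other changes was not tested.

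Alcohol and polyol dehydrogenases held no called gene. *Adh1* (*Adh*) and *Adh2* (*Adh*) are duplicated alcohol dehydrogenases, which oxidise the alcohols of fermenting food. *Adh1* had 4531 and 6597 in EPS larvae, against 11587 and 9220.3 in HPLS larvae (log2 fold change -0.92, SE 0.23, adjusted p = 0.285). *Adh2* had 36919.9 and 19899.9 in EPS larvae, against 42796 and 59024 in HPLS larvae, and its difference of -0.21 in pair 1 and -1.57 in pair 2 came mostly from pair 2 (log2 fold change -0.89, SE 0.32, adjusted p = 0.496). Reads may be shared by the copies, which was not tested, so the split between them is uncertain. The study separated the copies by RT-qPCR with specific primers on the extreme diets, LPHS and HPLS. It reported a diet difference for *Adh2* and none for *Adh1*. In the limma fit used here both copies were lower in LPHS than in HPLS larvae. The log2 fold change of LPHS over HPLS was -2.67 for *Adh2* (adjusted p = 0.0072) and -1.90 for *Adh1* (adjusted p = 0.00757). GI15562 (*CG10962*), a short-chain dehydrogenase, had 1702 and 4539 in EPS larvae, against 2369 and 5614 in HPLS larvae, and the groups overlapped (log2 fold change -0.39, SE 0.19, adjusted p = 0.705). GI22936 (*Sodh-1* or *Sodh-2*), sorbitol dehydrogenase, which makes fructose from sorbitol, had 304 and 269 in EPS larvae, against 112 and 43.3 in HPLS larvae. The EPS values were well above the HPLS values, and its p lay just outside the threshold (log2 fold change 2.02, SE 0.28, adjusted p = 0.0668).

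Proteases, inhibitors and secretory genes held no called gene either. GI24439 (*CG31266*), a chymotrypsin-type peptidase, had 2313 and 2553 in EPS larvae, against 1317 and 1545 in HPLS larvae (log2 fold change 0.77, SE 0.12, adjusted p = 0.101). GI21250 (*CG8299*), a trypsin, had 450.2 and 307 in EPS larvae, against 226 and 119 in HPLS larvae (adjusted p = 0.235), and GI22618 (*CG15255*), an astacin metallopeptidase, had 173 and 90.6 in EPS larvae, against 87.7 and 61.9 in HPLS larvae (adjusted p = 0.257). GI17503 (*CG42370*), a metallopeptidase of family M13 by annotation, had 581 and 349 in EPS larvae, against 827 and 664 in HPLS larvae (adjusted p = 0.218). EPS values were above HPLS values in GI24439, GI21250 and GI22618 and below them in GI17503. These 4 were named for the smallest p among 9 protease and inhibitor genes, all listed by the study on these libraries. Their arrangement is therefore not independent evidence. Of the 9, EPS values lay above HPLS values in 3 and below them in 2, and the groups overlapped in 4. The groups did not overlap in 25.3% of all genes tested. In the secretory pathway GI20777 (*Sec61β*), of the channel into the endoplasmic reticulum, had 1158 and 717 in EPS larvae, against 1725 and 1511 in HPLS larvae (adjusted p = 0.179). GI23963 (*Crc*), calreticulin, a chaperone of that compartment, had 9444 and 5252 in EPS larvae, against 11768 and 9924 in HPLS larvae (adjusted p = 0.329). GI24163 (*Hsp68*), a heat shock chaperone, differed more between replicates than between diets, with 329.6 and 106 in EPS larvae, against 248 and 104 in HPLS larvae (adjusted p = 0.922).

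The LPHS libraries show where each gene stood after the second step. The comparisons LPHS-EPS and EPS-HPLS share the EPS libraries, so the 2 changes are given side by side and not tested for the genes chosen by the first. GI18936 had 31.9 and 11.3 in HPLS, 837 and 1167 in EPS and 1098 and 1046 in LPHS larvae, with a second step of 0.12 (SE 0.39) after a first of 5.62. GI23350 (*Cyp304a1*) had 507 and 856 in HPLS, 14.4 and 48.3 in EPS and 25.1 and 22.4 in LPHS larvae, with -0.16 (SE 0.38) after -4.58. GI16321 had 92.6 and 131 in HPLS, 261 and 417 in EPS and 227 and 342 in LPHS larvae, with -0.24 (SE 0.14) after 1.57. In these 3 genes the second value was small beside the first.

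Other genes differed in how the second step compared with the first. GI14996 (*Thor*) had 119.5 and 224 in HPLS, 264 and 536 in EPS and 635 and 1037 in LPHS larvae, and its second step of 1.11 (SE 0.14) was close to its first of 1.20. GI17523 had -1.30 and then -1.35 (SE 0.14), and GI23785 (*Sardh*) had -2.43 and then -1.42 (SE 0.27). GI11069 (*Pgd*) had 1.19 and then 0.31 (SE 0.12). *Adh2* and GI15562 had the smaller value at the first step, -0.89 and -0.39, before -1.78 (SE 0.32) and -1.50 (SE 0.19). *Adh1* had -0.92 and then -0.98 (SE 0.23). Over all 9724 genes, 0 genes had 2 steps that differed at an adjusted p of at most 0.05 in limma, and 220 (2.26%) had an unadjusted p under 0.05. The count was also 0 with the quasi-likelihood test of edgeR, 6 with its likelihood-ratio test and 3 with DESeq2, and it ran from 2 to 9 when an EPS or HPLS library was left out (2 without EPS replicate 1, 3 without EPS replicate 2, 4 without HPLS replicate 1 and 9 without HPLS replicate 2).

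**Figure D4:**
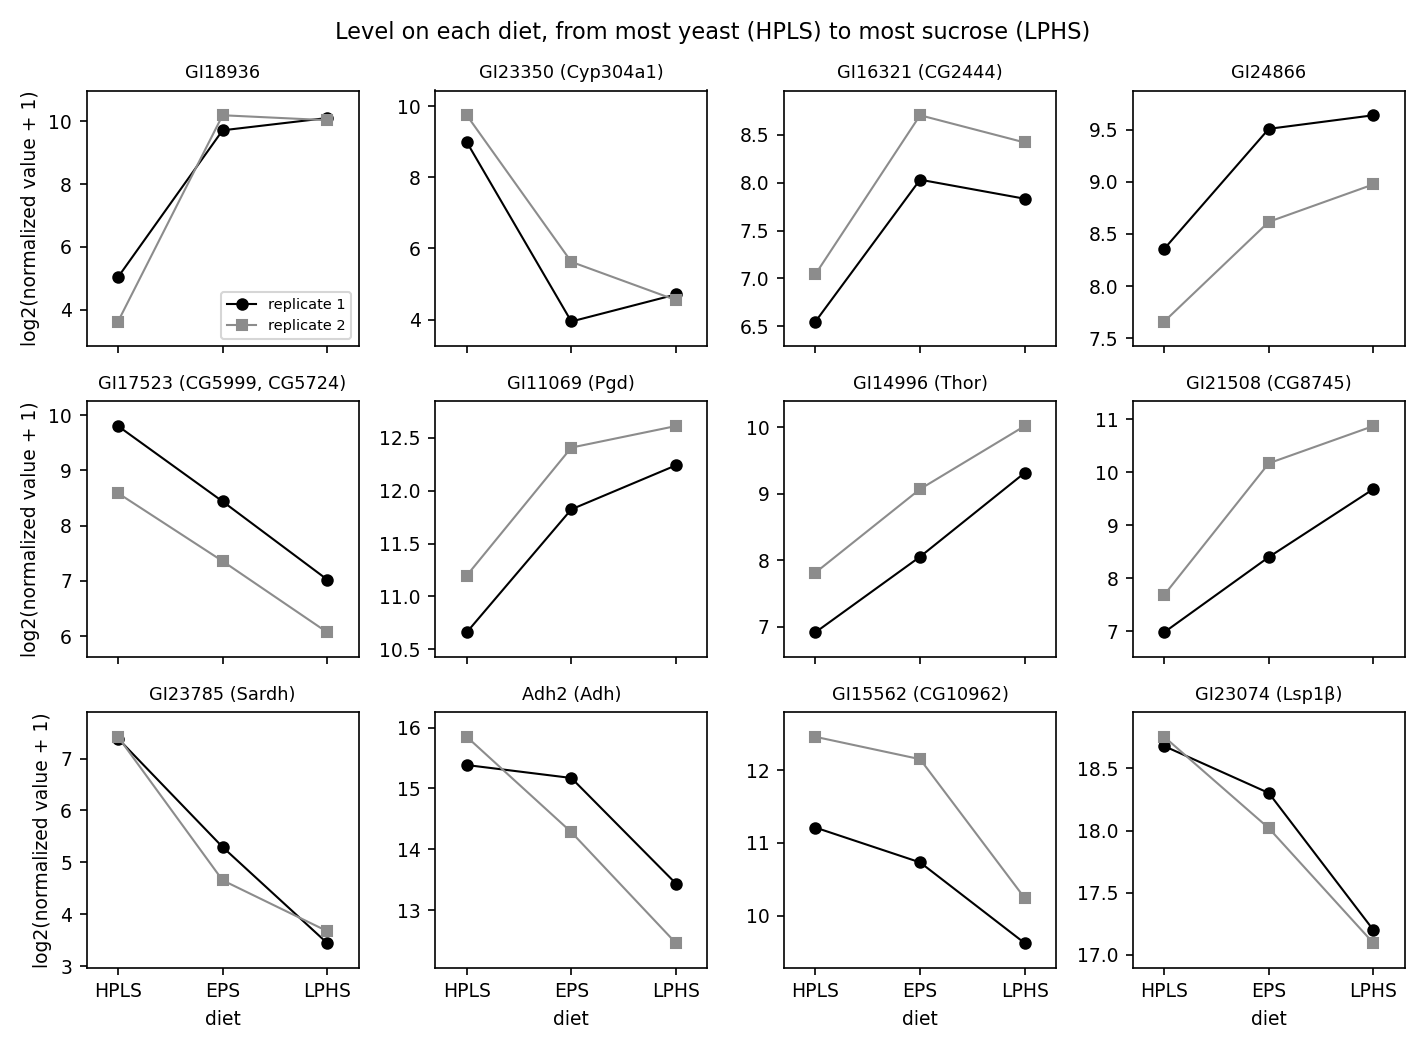
Level of 12 named genes, as log2(normalized value + 1) on vertical axes that differ between panels, on the HPLS, EPS and LPHS diets, with black circles for replicate 1 and grey squares for replicate 2. GI18936 and GI23350 differ between HPLS and EPS and little between EPS and LPHS, while *Thor* has values of 1.20 and 1.11 at the steps.

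HPLS replicate 2 held transcripts that hardly any other library had. Of 15180 genes in the table, 8 had at least 10 fragments in that library and at most 3 in each other library, against 1 gene for HPLS replicate 1, 2 for LPHS replicate 1 and 0 for the others. The 6 genes of the list of the study that did not pass the filter, all listed as down, had 13 to 58 fragments in HPLS replicate 2 and at most 4 in any other library. Their lower level in EPS larvae thus rested on 1 HPLS library, and it was not tested.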

How the data were processed

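Whole larvae of *D*. *mojavensis* were sequenced as read pairs, and the authors mapped them with TopHat2 and bowtie2 to the FlyBase genome of the species and ran cuffdiff2 at default settings. Tool versions are not given in the sources used here. The deposited values are a signal, fragment counts divided by one size factor per library. Of the values above 0, 100.0% were whole multiples of one step per library (within 0.01 steps, wider in proportion for large values), and division by the step gave back the fragments, from 6819502 to 9910492 in the EPS and HPLS libraries. Few fragments make low genes imprecise, and 2 replicates per diet limit the rest.

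Deposited values were scaled between libraries by TMM and are called normalized values. The filterByExpr function of edgeR 4.0.16, with a minimum count of 10 and the diet as group, left 9724 of 15180 genes. The log2(value + 1) of all 6 libraries of the 3 diets was fitted by limma (version 3.58.1) with a variance trend, the diet and the replicate number as a block (2 residual degrees of freedom), two-sided, and the calling threshold was 0.05 after Benjamini-Hochberg adjustment. limma was used since the values are not counts. The study's methods state cuffdiff2 without a block. The difference between replicates 2 and 1 correlated across genes between diets, at 0.571 for EPS and HPLS, 0.518 for LPHS and HPLS and 0.702 for LPHS and EPS, but only the S number in the labels pairs the libraries.

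On the recovered counts, the quasi-likelihood and likelihood-ratio tests of edgeR and DESeq2 (version 1.42.0) were run as alternatives, with R version 4.3.3. An alternative added after seeing the data applied the filter to fragments and kept 9775 genes. The limma, edgeR and DESeq2 fits were also run on simulated data. Gene names, domains and orthologs came from the study's annotation of 142 genes, sorted into lists. The members and lists were chosen with earlier results of these data known. Named are every called gene, in each list the called members or else up to 4 with the smallest p, the genes of the RT-qPCR of the study, larval markers, and up to 5 genes per direction with the largest change in both pairs. All 6 columns of the table had a sample, and the tables of the other species were not used here. Of the called genes, 1 is counted but not reported here. Python (version 3.11.15) made tables and figures.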

Additional observations from a re-analysis of the deposited data

How the results depend on the processing

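The 18 calls (13 higher, 5 lower, 17 of them listed genes) came out identical with RLE scaling, no further scaling, no filter, a pseudocount of 0.5 and the filter on recovered fragments, the last chosen after seeing the data. With no replicate block the count was 0 (0 higher, 0 lower, 0 listed genes) in limma and 0 in the quasi-likelihood test of edgeR, with 217 genes and 227 genes below 0.05 before adjustment. The common biological coefficient of variation was 0.13 with the block and 0.24 without it. With the block, the quasi-likelihood test called 13 (8 higher, 5 lower, 13 listed genes), the likelihood-ratio test 176 (89 higher, 87 lower, 83 listed genes) and DESeq2 84 (44 higher, 40 lower, 54 listed genes) of the 4445 genes to which it gave an adjusted p. Other limma fits called 207 with only the 4 EPS and HPLS libraries (100 higher, 107 lower, 102 listed genes), 14 with a pseudocount of 5, 9 at a mean value of at least 50 (6 higher, 3 lower, 9 listed genes) and 1 without a variance trend (1 higher, 0 lower, 1 listed gene). Leaving out 1 EPS or HPLS library gave 23 to 165 (13 to 91 higher, 6 to 74 lower, 18 to 58 listed genes), with the lone library of a diet assumed to vary like the others.

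The count of genes whose 2 steps differ was 0 in all limma fits of 6 libraries, 6 with the likelihood-ratio test and 3 with DESeq2, and 2 to 9 when a library was left out. Over 42 named genes and 18 settings, 744 log2 fold changes had an adjusted p, of which 591 kept direction and side of the threshold, 85 lost and 66 gained the call. DESeq2 gave no adjusted p for 9 named genes, 3 of them among the 18 genes, and these are not counted. GI24163 (*Hsp68*) changed sign when HPLS replicate 1 or EPS replicate 2 was left out, and ranged from -0.30 to 0.73 over the settings without 1 library. Each of the 18 genes was called in 9 to 15 of the 18 alternatives. The causes of these shifts were not tested.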

Other observations

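Further listed genes, chosen after their values were seen, did not pass the test and are given as values. In sugar metabolism GI19942 (*Hex-C*), a hexokinase, had 95.2 and 30.2 in EPS larvae, against 175 and 95.9 in HPLS larvae (adjusted p = 0.167), and *Mal-A5*, a maltase, had 648 and 495 in EPS larvae, against 788 and 1441 in HPLS larvae (adjusted p = 0.353). GI23729 (*CG5171*), a trehalose 6-phosphate phosphatase, had 440.1 and 633 in EPS larvae, against 326 and 389.9 in HPLS larvae (adjusted p = 0.266). EPS values lay below HPLS values in the first pair of genes and above them in GI23729. Among lipid genes the stearoyl-CoA desaturase GI24323 (*CG9743*) had 1492 and 1678 in EPS larvae, against 924 and 1044 in HPLS larvae (adjusted p = 0.142), without overlap. The desaturase GI10484 (*Desat2*) had 1088 and 2935 in EPS larvae, against 372 and 1567 in HPLS larvae (adjusted p = 0.285), with overlap. GI19075 (*Acox57D-d*), an acyl-CoA oxidase of fatty acid breakdown, had 964 and 643 in EPS larvae, against 1776 and 1003 in HPLS larvae (adjusted p = 0.218), and its EPS values were lower in both pairs. GI24446 (*Npc2d*), with a lipid-recognition domain, had 8.5 and 85.8 in EPS larvae, against 90.7 and 268 in HPLS larvae (adjusted p = 0.277), and its replicates differed widely on each diet.

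Among growth and immune genes, GI15577 (*wgn*), a receptor of the tumour necrosis factor family, had 97.7 and 163 in EPS larvae, against 53.8 and 78.4 in HPLS larvae (adjusted p = 0.179). GI15086 (*Pvf1*), a growth factor of the PDGF and VEGF family, had 225 and 215 in EPS larvae, against 134 and 101 in HPLS larvae (adjusted p = 0.201), and GI17258 (*Idgf1*), an imaginal disc growth factor, had 360.2 and 389 in EPS larvae, against 153 and 246 in HPLS larvae (adjusted p = 0.298). In these genes all EPS values were above all HPLS values. They come from the genes listed as up, of which 71.2% had this arrangement, against 12.4% of all genes tested. GI11906 (*CG5059*) of the same growth list had overlapping groups, with 177 and 422 in EPS larvae, against 173 and 238 in HPLS larvae (adjusted p = 0.76). GI16640, with a lysozyme-like domain, had 434 and 516 in EPS larvae, against 130.5 and 279 in HPLS larvae (adjusted p = 0.109), and GI19390, an immune-induced protein, had 279 and 169 in EPS larvae, against 123 and 35.1 in HPLS larvae (adjusted p = 0.167). GI20837 (*AttA* or *AttB*), an attacin, which is an antibacterial peptide, had 485 and 1163 in EPS larvae, against 342 and 172 in HPLS larvae (adjusted p = 0.479), and its highest value was in EPS replicate 2. GI14799 (*CG4991*), an amino acid transporter by annotation, had 49.3 and 93 in EPS larvae, against 14.9 and 36.1 in HPLS larvae (adjusted p = 0.0644), close to the threshold. The actin genes GI19595 (*Act42A*) and GI24339 (*Act87E*, *Act57B* or *Act88F*) had log2 fold changes of 0.51 and -1.02 (adjusted p = 0.448 and adjusted p = 0.117). Reads may be shared among actins, which was not tested, so these values may be uncertain.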
